A study of Mus musculus with 2 samples.

Results

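*Pax6*, *Pax2*, *Pax3*, *Pax8*, *Vax1* and *Vax2* were followed through the cell classes of the early mouse eye. These 6 genes were taken by name from the 27998 genes of the count tables, by a rule that sets no threshold on a measured value. The cells came from the ocular area of C57BL/6J embryos at the 26-somite stage, when the optic vesicle touches the surface ectoderm that will form the lens. A pair of optic areas was dissected from 1 wild-type (WT) and 1 *Mab21l1*-null (KO) embryo and dissociated with trypsin, and each embryo gave 1 library on the 10x Chromium 3′ system. This system counts each captured transcript once by its unique molecular identifier (UMI). After filtering, 1680 cells with 41880035 UMIs stayed in the library labelled WT, and the one labelled KO kept 2404 with 52430844 UMIs. With 1 library per genotype no difference between the genotypes has a replicate check, the embryo and the genotype cannot be told apart, and no test was made. Brackets give exact 95% intervals, Poisson for levels and binomial for shares of cells, and they cover counting error only.

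Pax proteins bind DNA through a paired domain, and *Pax6* is the member required for the lens and for much of the retina. In the optic vesicle *Pax6* and *Pax2* begin in overlapping cells and later mark the cup and the optic stalk respectively. *Vax1* and *Vax2* encode related homeodomain proteins of the ventral side, *Vax1* of the stalk and ventral forebrain and *Vax2* of the ventral retina. *Pax3* marks neural crest and dorsal neural tube, and *Pax8* is known from the thyroid, the kidney and the midbrain-hindbrain boundary.

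The genes lie on 4 chromosomes of GRCm38. *Pax6* (ENSMUSG00000027168) lies at chr2:105668900-105697364 on the plus strand, where its first 1431 bases are shared with the antisense gene *Pax6os1*. *Pax8* (ENSMUSG00000026976) lies at chr2:24420560-24475599 and *Pax3* (ENSMUSG00000004872) at chr1:78101267-78197134, both on the minus strand. *Vax2* (ENSMUSG00000034777) lies at chr6:83711264-83738313 and *Pax2* (ENSMUSG00000004231) at chr19:44756045-44837871, both on the plus strand, and *Vax1* (ENSMUSG00000006270) at chr19:59166187-59170056 on the minus strand. The RefSeq model of *Vax1* runs 1707 bases beyond the 3′ end of the GENCODE M21 model, against 1046 bases for *Pax6*, 398 for *Pax2*, 9 for *Pax8* and 0 for *Pax3* and *Vax2*. Reads of a 3′ library fall near that end, but the gene models behind the deposited counts are not given in the sources used here, and the part this has in the low *Vax1* counts was not tested. *Pax6os1* had 55 UMIs in cells labelled WT and 91 in those labelled KO, against 7509 and 7907 UMIs of *Pax6*.

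Start-site windows of 300 bases were found in the RefSeq table of GRCm38.p6 for 4 of the 6 genes. *Vax2* and *Pax3* had no entry. Of the genes whose detection in the same cells was compared, 3 had an entry, and for each the window nearest to the GENCODE start is shown 5′ to 3′, because Pax6 and the Vax proteins bind DNA through homeodomains. Capitals mark the homeodomain core ATTA on either strand, which reads TAAT on the other.
*Pax6* at chr2:105668646-105668945, plus strand, GRCm38.p6: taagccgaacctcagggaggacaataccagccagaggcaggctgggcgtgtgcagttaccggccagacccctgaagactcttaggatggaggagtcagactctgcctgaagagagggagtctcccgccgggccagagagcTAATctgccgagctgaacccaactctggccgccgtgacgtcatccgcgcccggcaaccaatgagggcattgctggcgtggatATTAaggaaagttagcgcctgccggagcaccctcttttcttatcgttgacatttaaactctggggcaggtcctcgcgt
*Pax2* at chr19:44755502-44755801, plus strand, GRCm38.p6: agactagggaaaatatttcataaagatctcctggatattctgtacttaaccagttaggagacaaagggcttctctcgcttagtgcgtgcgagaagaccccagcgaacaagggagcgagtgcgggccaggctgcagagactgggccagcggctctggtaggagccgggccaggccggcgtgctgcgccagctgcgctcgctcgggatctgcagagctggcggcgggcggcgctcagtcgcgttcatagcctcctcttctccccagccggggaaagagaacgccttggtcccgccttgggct
*Vax1* at chr19:59170348-59170647, minus strand, GRCm38.p6: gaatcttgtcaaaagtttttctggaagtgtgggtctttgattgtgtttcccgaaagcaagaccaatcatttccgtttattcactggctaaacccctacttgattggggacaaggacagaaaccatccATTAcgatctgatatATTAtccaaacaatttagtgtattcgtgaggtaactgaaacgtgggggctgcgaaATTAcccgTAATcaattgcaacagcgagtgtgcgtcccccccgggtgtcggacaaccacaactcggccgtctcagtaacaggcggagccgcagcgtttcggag
The *Vax1* window held 4 such cores, the *Pax6* window 2 and the *Pax2* window 0. The other *Pax6* window, at an internal start, held 2, the other *Pax2* windows held 0 and 1, and the *Pax8* window held 0. Of all 32851 windows 58.0% held at least 1 core, and the palindrome TAATTA, which overlaps the core on both strands, was in 5.29% of all windows and in none of the 7 windows of these genes. These matches are a description of the letters in the windows.

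Cells were sorted into classes by how many markers of each class they held with at least 1 UMI. The optic vesicle (OV) class needed 3 of 5 markers (*Rax*, *Lhx2*, *Six6* and *Six3* among them) and held 770 cells labelled WT and 1129 labelled KO, with medians of 25059 and 21646 UMIs per cell. Ectoderm held 54 and 39 cells, forebrain 67 and 80, neural crest 29 and 22, mesenchyme 459 and 701, and erythroid cells 36 and 50. Exactly at the minimum of 3 markers lay 239 and 322 of the cells that passed the optic vesicle gate, and 134 and 160 cells lay 1 marker below it. In this class the median cell held 4 optic vesicle markers, 0 ectoderm markers and 1 mesenchyme marker in both libraries, and 2 and 3 of the 9 erythroid markers. The 73 and 91 cells that passed more than 1 gate had medians of 37215 and 33300 UMIs, and they were left out as possible doublets, with no other doublet call made. No cell of the forebrain class passed the ventral diencephalon or midbrain gates, and *En1*, *En2*, *Shh* and *Foxa2* had between 0 and 5 UMIs per library in all cells, so those territories could not be described.

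*Mab21l1*, the gene disrupted in the KO embryo, was counted in both libraries. It stood at 29.2 CPM (UMIs per 1000000 UMIs) in optic vesicle cells labelled WT and at 51.1 CPM in those labelled KO, in ectoderm at 87.4 and 39.7 CPM, and over all kept cells at 20.3 and 32.5 CPM. Which part of the gene these reads cover cannot be seen in the counts, so the libraries are named as labelled, and every direction between them depends on those labels. Free RNA differed between the libraries: the embryonic globin gene *Hbb-y*, which optic vesicle cells should lack, had 107 CPM there in cells labelled WT and 227 CPM in those labelled KO. Only 15 barcodes were found in both libraries.

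Over kept cells of all classes, 970 of 1680 and 1301 of 2404 held *Pax6* RNA. It was found in 719 and 1035 optic vesicle, 59 and 66 forebrain and 43 and 30 ectoderm cells. Among 11 classes that share no cells, its level was highest in ectoderm cells with at least 3 lens markers (lens-gated ectoderm), at 394 CPM [347, 445] in 31 cells labelled WT and 401 CPM [318, 500] in 11 cells labelled KO. Next came dorsal-gated optic vesicle cells at 329 CPM [310, 349] and 306 CPM [290, 323], with intervals that overlapped the lens-gated ones in both libraries. Pigment-gated optic vesicle cells, which may also be in the axis classes, had 356 CPM [340, 373] and 334 CPM [318, 351], which overlapped the lens-gated range in both libraries. Optic vesicle cells past neither the dorsal nor the ventral gate had 261 and 220 CPM and ventral-gated cells 246 and 210 CPM, and these ranges of the libraries overlapped. Forebrain cells had 221 CPM [195, 250] and 135 CPM [116, 155], which overlapped the ventral-gated range in turn. In ectoderm outside the lens gate *Pax6* stood at 63.3 CPM [41.3, 92.7] and 109 CPM [79.9, 145], below every optic vesicle class. Neural crest, mesenchyme, endothelium, erythroid cells and macrophages had between 0 and 4.11 CPM, and the 114 and 190 cells that passed no gate, the shallowest of the cells with medians of 10824 and 9958 UMIs, had 149 and 81.4 CPM.

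The *Pax6* level in lens-gated ectoderm was 6.23-fold [4.15, 9.71] that in other ectoderm in cells labelled WT and 3.69-fold [2.54, 5.42] in those labelled KO. *Pax6* itself was not a marker of that gate, which read *Six3*, *Sox2*, *Maf*, *Foxe3*, *Pitx3*, *Prox1* and *Sfrp2*. All 31 and all 11 lens-gated cells held at least 1 *Pax6* UMI, with up to 25 and 13 UMIs in a cell.

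*Pax2*, in contrast, was counted in neural cells and hardly at all in ectoderm. Ventral-gated optic vesicle cells had the highest level, at 123 CPM [115, 132] in cells labelled WT and 138 CPM [130, 147] in those labelled KO. Cells past neither gate had 95.6 and 99.9 CPM, dorsal-gated cells 55.4 and 62.1 CPM, and forebrain cells 39.2 and 74.7 CPM. Of these neighbours only dorsal-gated and forebrain cells overlapped. In the 54 ectoderm cells labelled WT there were 3 *Pax2* UMIs, and in the 39 labelled KO there were 0, which allows up to 4.77 CPM.

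*Vax2* differed most between the ventral and the dorsal gate among the abundant genes. Ventral-gated cells had 148 CPM [139, 157] in cells labelled WT and 188 CPM [179, 198] in those labelled KO, and dorsal-gated cells 17.6 CPM [13.4, 22.7] and 25.9 CPM [21.5, 31.1]. Forebrain cells, at 78.3 and 102 CPM, overlapped the optic vesicle cells past neither gate, at 96.4 and 115 CPM. Ectoderm held 3 and 0 *Vax2* UMIs, as for *Pax2*.

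*Pax3* belonged to other cells. Neural crest had 129 CPM [99.5, 166] in cells labelled WT and 147 CPM [108, 195] in those labelled KO, and mesenchyme 13.6 CPM [11.3, 16.2] and 18.0 CPM [15.7, 20.7], so that neural crest was 9.54-fold [6.92, 13.0] and 8.14-fold [5.80, 11.2] higher. Mesenchyme, with many more cells, gave 53.8% of all *Pax3* UMIs labelled WT and 61.2% of those labelled KO. The 147 forebrain cells of both libraries held none, and optic vesicle cells were at 0.497 and 0.625 CPM.

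*Pax8* and *Vax1* were close to the limit of detection. *Pax8* had 17 UMIs in 17 cells labelled WT and 23 UMIs in 22 cells labelled KO, of which 14 and 20 UMIs were in the optic vesicle class. *Vax1* had 23 UMIs in 22 cells and 32 UMIs in 29 cells, of which 17 and 26 UMIs were in the optic vesicle class. There were 4 and 5 *Vax1* UMIs in ventral-gated cells and 0 in dorsal-gated cells of both libraries, where a count of 0 allows up to 0.893 and 0.665 CPM. The other paired box genes were lower still or lay outside the eye. *Pax1*, *Pax4* and *Pax5* had 1, 0 and 2 UMIs in all cells labelled WT and 5, 1 and 14 labelled KO. *Pax7* had 38 and 35 UMIs, and *Pax9* had 55 and 98, of which 43 and 90 were in mesenchyme.

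Erythroid cells, which should lack these genes and had medians of 32480 and 33458 UMIs per cell, gave the level of free RNA. They held 0 and 3 *Pax6* UMIs, 2 and 2 *Pax2* UMIs, 0 and 1 *Vax2* UMIs, and 0 UMIs of *Pax3*, *Pax8* and *Vax1*. Mesenchyme, at 3.92 and 3.40 CPM of *Pax6*, 1.57 and 1.66 CPM of *Pax2* and 1.79 and 2.44 CPM of *Vax2*, was low for all of them too.

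**Figure D1:**
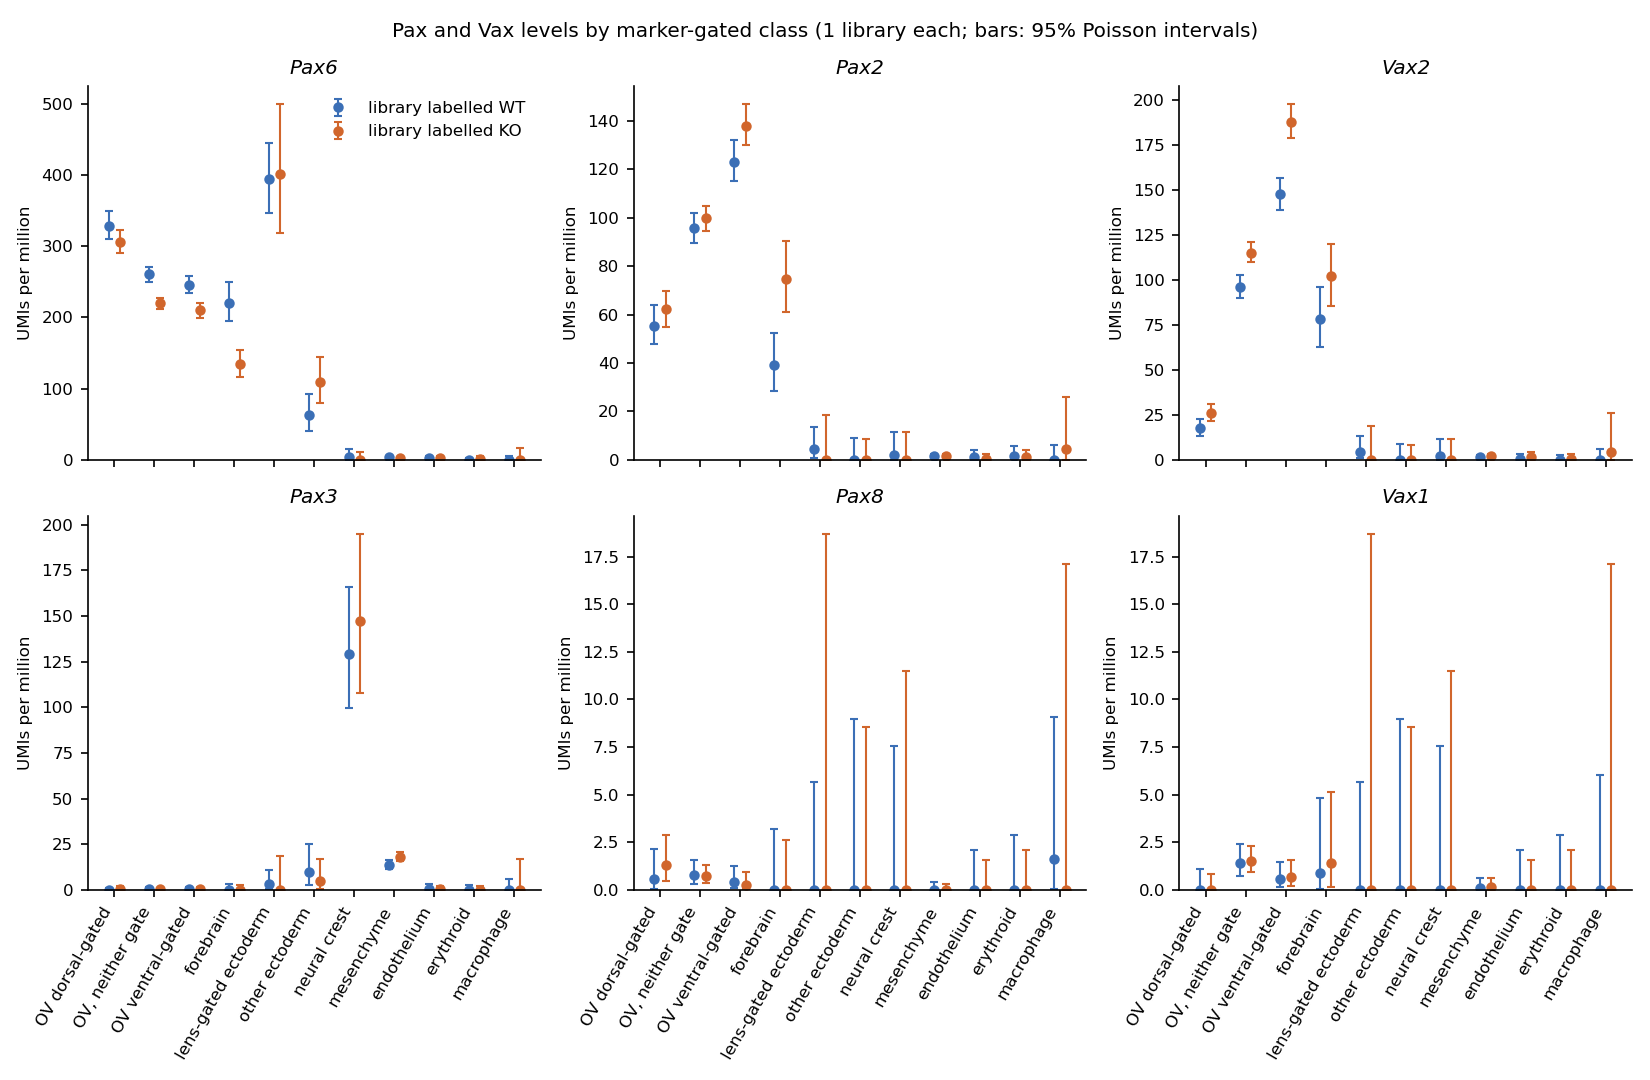
Levels of the 6 genes in UMIs per 1000000 (each panel with its own linear axis) in 11 classes that share no cells, for the libraries labelled WT (blue) and KO (orange), with exact 95% Poisson intervals. *Pax6* is highest in lens-gated ectoderm at 394 and 401 CPM, where its intervals overlap those of dorsal-gated cells. *Pax2* and *Vax2* peak in ventral-gated optic vesicle cells, *Pax3* in neural crest, and *Pax8* and *Vax1* stay below 2 CPM in every class.

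Within the optic vesicle the 3 abundant genes were then compared along its axes. Dorsal cells were those with at least 3 of *Tbx5*, *Tbx3*, *Tbx2*, *Bmp4* and *Aldh1a1*, ventral cells those with at least 3 of *Aldh1a3*, *Ntn1*, *Cyp1b1*, *Ephb2* and *Ephb3*, and none of the 6 genes was used for this. Cells past both gates, 51 labelled WT and 63 labelled KO with medians of 51804 and 44806 UMIs, were left out of both classes. This left 107 and 169 dorsal-gated cells and 185 and 216 ventral-gated cells. *Vax2* was 8.43-fold [6.48, 11.2] higher in ventral-gated than in dorsal-gated cells of the library labelled WT and 7.26-fold [6.01, 8.84] higher in the one labelled KO. *Pax2* was 2.23-fold [1.90, 2.62] and 2.23-fold [1.95, 2.55] higher. *Pax6* ran the other way, at 0.750 [0.694, 0.809] and 0.684 [0.636, 0.736] of its dorsal level. As a background, 1.42% of the 9055 genes compared, gate markers left out, were at least 1.5-fold higher in ventral-gated cells of both libraries, as *Vax2* and *Pax2* were, and 2.52% were at least 1.5-fold lower, which *Pax6* was not. The ventral-gated cells were also the deeper ones, with medians of 33003 and 33386 UMIs per cell against 27366 and 23074, and the part of depth in passing a gate was not tested.

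The *Vax2* values of dorsal-gated cells rested on few cells. Only 20 of 107 cells labelled WT and 37 of 169 labelled KO held a *Vax2* UMI, and the highest of them had 22 and 15 UMIs. When each cell counted equally, as the mean of UMIs per 10000, the ventral over dorsal ratio was 13.6 in cells labelled WT and 9.46 in those labelled KO, and with gates of 1 marker fewer it was 13.1 and 4.54.

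The pigment epithelium gate (3 of *Mitf*, *Pmel*, *Dct*, *Tyrp1*, *Gpr143*, *Slc45a2* and *Wnt2b*) was passed by 152 cells labelled WT and 172 labelled KO. The neural retina gate (3 of 4 markers, *Sox2*, *Hes5* and *Fgf15* among them) was passed by 145 and 285. Cells past both gates were left out of both classes, which left 138 and 153 pigment-gated and 131 and 266 neural retina-gated cells. *Pax2* was lower in pigment-gated cells, at 44.1 CPM [38.5, 50.4] against 110 CPM [101, 120] in cells labelled WT and at 52.2 CPM [46.0, 59.0] against 115 CPM [108, 123] in those labelled KO, ratios of 0.401 [0.340, 0.471] and 0.453 [0.393, 0.520]. *Pax6* was higher there, at 356 CPM [340, 373] against 275 CPM [259, 290] and at 334 CPM [318, 351] against 227 CPM [217, 238], ratios of 1.30 [1.21, 1.40] and 1.47 [1.38, 1.57]. *Vax2* gave no common direction, with 0.877 [0.763, 1.01] and 1.09 [0.987, 1.21]. Among the 8939 genes compared, 2.63% were at least 1.5-fold lower in pigment-gated cells of both libraries, as *Pax2* was, and 4.03% at least 1.5-fold higher, which *Pax6* was not. *Pax8*, at 5 and 15 UMIs in neural retina-gated cells, had 2 and 0 UMIs in pigment-gated cells.

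**Figure D2:**
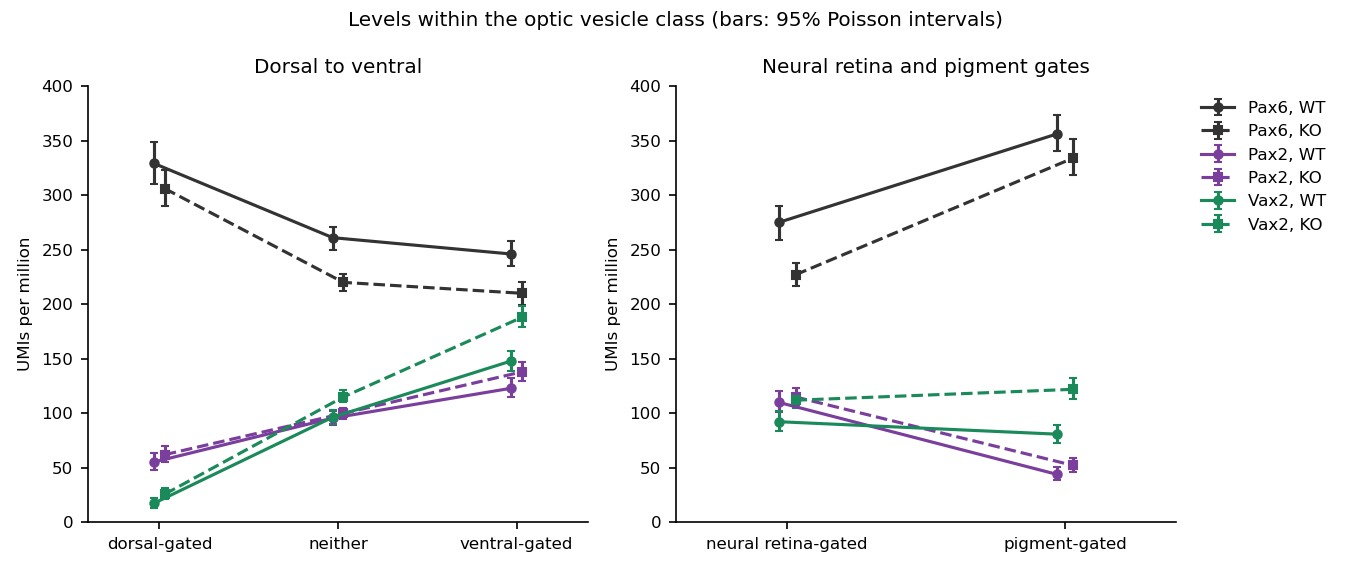
Levels of *Pax6* (black), *Pax2* (purple) and *Vax2* (green) in UMIs per 1000000 within the optic vesicle class, for the libraries labelled WT (circles, solid lines) and KO (squares, dashed lines), with exact 95% Poisson intervals. From the dorsal to the ventral gate *Vax2* goes from 17.6 to 148 CPM and from 25.9 to 188 CPM while *Pax6* goes from 329 to 246 CPM and from 306 to 210 CPM. From the neural retina to the pigment gate *Pax2* goes from 110 to 44.1 CPM and from 115 to 52.2 CPM.

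Over the 11 separate classes of both libraries, 22 points in all, *Pax2* and *Vax2* were each other's most similar genes, with a Pearson correlation of 0.974 between their log2(CPM + 1) values. These points share libraries and differ in depth, so the value describes the pattern. Next to *Pax2* came *Plcxd3* (0.968) and *Gpr162* (0.965), and next to *Vax2* came *Stmn3* (0.960) and *Zic4* (0.957). The pattern of *Pax6* was most like that of *Six3* (0.982), a homeobox gene of the eye field and lens placode, which was itself a marker of the optic vesicle and lens gates, and then *C330021F23Rik* (0.973) and *Glt1d1* (0.971). *Pax3* was followed by *Ngfr* (0.955), a receptor gene of migrating neural crest, *Igdcc4* (0.946) and *Heyl* (0.945). *Pax8* and *Vax1*, with 40 and 55 UMIs in both libraries together, had fewer than the 100 UMIs asked for.

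Whether single cells held RNA of *Pax6* and *Pax2* together was asked at an even depth, with each cell thinned to 10000 UMIs. This left out 46 optic vesicle cells labelled WT and 52 labelled KO that were shallower. *Pax6* and *Pax2* were then found together in 308 of 724 cells labelled WT, or 42.5% [38.9, 46.2], and in 442 of 1077 cells labelled KO, or 41.0% [38.1, 44.0]. *Pax6* alone was found in 42.0% and 39.1%, *Pax2* alone in 67 cells labelled WT and 137 labelled KO (12.7%), and neither in 6.22% and 7.15%. Without thinning the shares with both were 68.8% [65.4, 72.1] of 770 cells and 66.5% [63.7, 69.3] of 1129 cells, so many cells that show only 1 of them at 10000 UMIs held both. Over 20 other draws of the thinning the share ran from 38.1% to 43.9% in cells labelled WT and from 38.4% to 43.0% in those labelled KO. The libraries overlapped in this range.

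The overlap was then read by territory. In ventral-gated cells 50.8% [43.3, 58.3] of 183 cells labelled WT and 50.0% [43.1, 56.9] of 216 labelled KO held both, against 33.0% [24.1, 43.0] of 103 and 34.3% [27.2, 42.1] of 166 dorsal-gated cells. Neural retina-gated cells had 51.6% [42.5, 60.7] and 49.6% [43.4, 55.8], and pigment-gated cells 22.6% [15.9, 30.6] and 32.7% [25.2, 40.8]. *Pax6* alone or with *Pax2* was found in 78.7% to 91.3% of the cells of these optic vesicle classes. *Pax2* was found in 63.4% and 66.2% of ventral-gated, 37.9% and 41.0% of dorsal-gated, 58.1% and 61.1% of neural retina-gated and 24.8% and 38.7% of pigment-gated cells. The share with both thus differed between these classes mainly as the share with *Pax2* did. In forebrain the shares were 11.9% [4.91, 22.9] of 59 cells and 28.2% [18.1, 40.1] of 71. Lens-gated ectoderm held both in 2 of 29 cells labelled WT and 0 of 10 labelled KO, where a count of 0 allows up to 30%. Erythroid cells held both in 0 of 36 and 0 of 50, which allows shares of up to 8.33% and 6.00%.

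**Figure D3:**
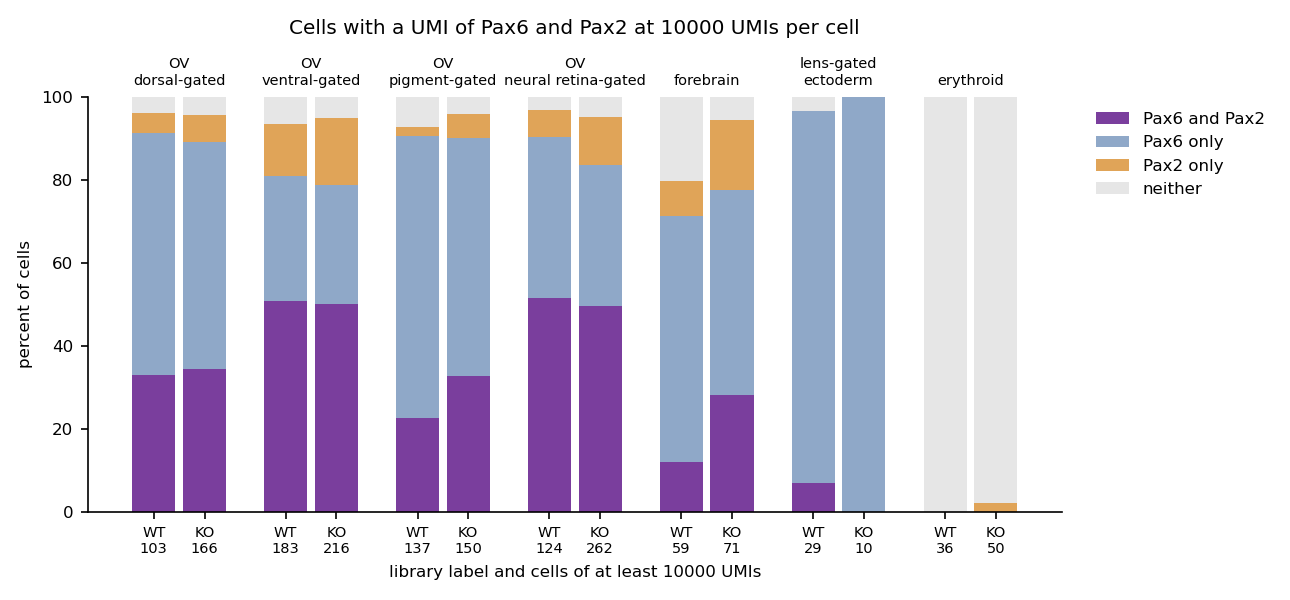
Percent of cells in which at least 1 UMI of both *Pax6* and *Pax2* (purple), of *Pax6* only (blue), of *Pax2* only (orange) or of neither (grey) was found after thinning to 10000 UMIs, with the library label and the number of cells under each bar. The share with both is 50.8% and 50.0% in ventral-gated optic vesicle cells, 22.6% and 32.7% in pigment-gated cells, and 0% in erythroid cells. *Pax2* with or without *Pax6* is found in 63.4% and 66.2% of ventral-gated and 24.8% and 38.7% of pigment-gated cells.

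Over the pooled optic vesicle class, cells with more *Pax2* held less *Pax6*. Optic vesicle cells of the library labelled WT with 0 *Pax2* UMIs after thinning had a mean of 3.05 *Pax6* UMIs [2.87, 3.23], those with 1 or 2 had 2.58 [2.40, 2.78], and the 93 cells with 3 or more had 1.82 [1.55, 2.11]. In the library labelled KO the means were 2.55 [2.41, 2.69], 2.0 [1.87, 2.14] and, in 133 cells, 1.53 [1.32, 1.75]. Even so, *Pax6* was found in 82.1% [77.9, 85.9] of the cells with *Pax2* and 87.1% [83.1, 90.4] of those without in the library labelled WT, and in 76.3% [72.7, 79.7] and 84.5% [81.1, 87.6] in the one labelled KO. These values pool territories that differ in both genes, and the means were not split by territory. In ventral-gated cells the shares were 80.2% [71.7, 87.0] and 82.1% [70.8, 90.4] labelled WT, and 75.5% [67.6, 82.3] and 84.9% [74.6, 92.2] labelled KO. In pigment-gated cells they were 91.2% [76.3, 98.1] and 90.3% [82.9, 95.2], and 84.5% [72.6, 92.7] and 93.5% [86.3, 97.6]. In dorsal-gated cells they were 87.2% and 93.8% labelled WT, and 83.8% and 92.9% labelled KO. In neural retina-gated cells they were 88.9% and 92.3%, and 81.2% and 87.3%. Within each of these classes, which hold fewer cells than the pooled class, the intervals overlapped. The share was still lower with *Pax2* than without in each, except in pigment-gated cells labelled WT, so the overlap does not show equal shares.

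Over the same pooled cells *Vax2* ran with *Pax2*, although its means lay near 1 UMI at this depth. The mean *Vax2* count in cells labelled WT was 0.708 [0.622, 0.802] with no *Pax2* UMI, 1.04 [0.923, 1.17] with 1 or 2 and 1.26 [1.04, 1.51] with 3 or more. In cells labelled KO it was 0.888 [0.807, 0.974], 1.29 [1.18, 1.40] and 1.26 [1.07, 1.46], with no further step at 3 or more. Within ventral-gated cells *Pax2* was found in 65.4% [56.4, 73.6] of those with *Vax2* and 58.9% [45.0, 71.9] of those without, labelled WT. Labelled KO the shares were 67.9% [60.1, 75.1] and 61.4% [47.6, 74.0]. In pigment-gated cells they were 38.9% [25.9, 53.1] and 15.7% [8.61, 25.3] labelled WT, and 48.3% [35.2, 61.6] and 32.2% [22.8, 42.9] labelled KO. Of these pairs only the pigment-gated one labelled WT did not overlap. Both genes were found together in 27.2% [24.0, 30.6] and 28.6% [25.9, 31.4] of optic vesicle cells, in 45.4% and 50.0% of ventral-gated cells and in 3.88% and 6.63% of dorsal-gated cells. Without thinning they were found together in 49.5% and 50.8% of optic vesicle cells. *Pax6* and *Vax2* were found together in 37.0% and 37.7% of thinned optic vesicle cells and in 55.3% and 57.0% of all of them.

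**Figure D4:**
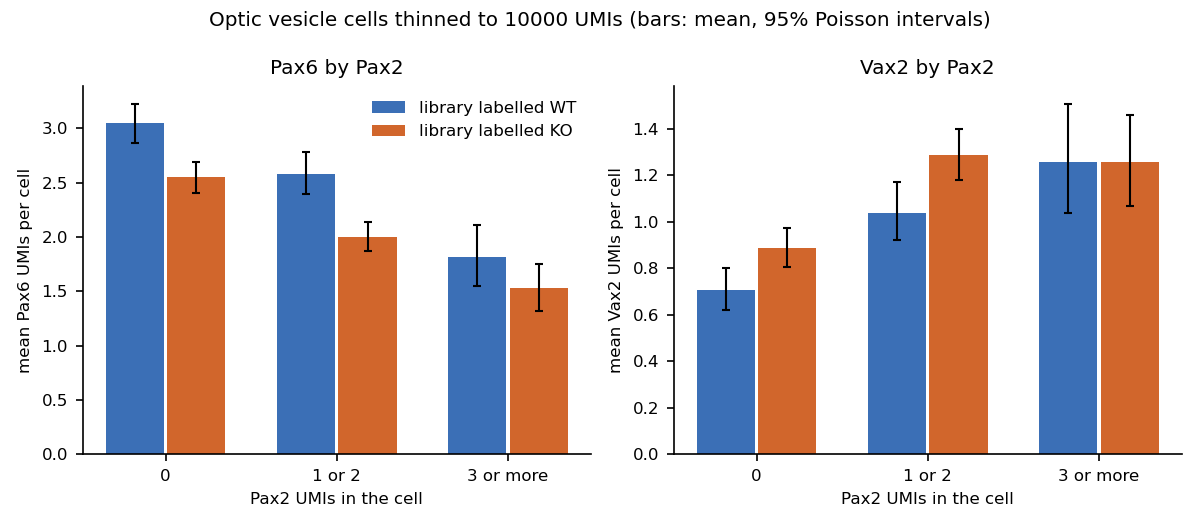
Mean number of *Pax6* UMIs (left) and *Vax2* UMIs (right) per optic vesicle cell thinned to 10000 UMIs, by the number of *Pax2* UMIs in the cell, for the libraries labelled WT (blue bars) and KO (orange bars), with exact 95% Poisson intervals as lines. All territories of the class are pooled. *Pax6* goes from 3.05 to 1.82 and from 2.55 to 1.53 UMIs as *Pax2* goes from 0 to 3 or more. *Vax2* goes from 0.708 over 1.04 to 1.26 in cells labelled WT and from 0.888 over 1.29 to 1.26 in those labelled KO.

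*Pax2* with *Vax1*, the combination of the optic stalk, was too sparse for a share with any precision. After thinning, 3 of 724 optic vesicle cells labelled WT held both, or 0.414% [0.0855, 1.21], and 4 of 1077 labelled KO, or 0.371% [0.101, 0.948]. Over 20 other draws the median share was 0.691% in cells labelled WT, from 0.138% to 1.10%, and 0.650% in those labelled KO, from 0.279% to 0.743%. With all UMIs there were 16 of 770 cells, or 2.08% [1.19, 3.35], and 18 of 1129, or 1.59% [0.948, 2.51]. No erythroid cell held *Vax1*. All 16 optic vesicle cells labelled WT with a *Vax1* UMI thus held *Pax2*, 13 held *Pax6* and 14 held *Vax2*, where the shares over the class were 73.5%, 93.4% and 58.8%. Of the 24 such cells labelled KO, 18 held *Pax2*, 20 *Pax6* and 20 *Vax2*, against 73.1%, 91.7% and 62.1% of the class. The *Vax1* cells labelled WT were deeper than their class, at a median of 31414 against 25059 UMIs, and those labelled KO shallower, at 19415 against 21646. Of these *Vax1* cells 12 of the 16 and 21 of the 24 were past neither the dorsal nor the ventral gate, as were 427 of 770 and 681 of 1129 cells of the whole class.

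The comparison of genotypes was made class by class as the ratio of CPM, KO over WT. In the optic vesicle *Pax6*, *Pax2* and *Vax2* were among the 11871 genes with at least 50 UMIs there. None of them reached a 1.5-fold difference, which 3.01% of those genes did. *Pax6* had 6058 UMIs or 274 CPM in cells labelled WT and 6794 UMIs or 236 CPM in those labelled KO, a ratio of 0.862 [0.833, 0.893]. *Pax2* had 96.7 and 102 CPM, a ratio of 1.05 [0.995, 1.11]. *Vax2* had 95.9 and 116 CPM, a ratio of 1.20 [1.14, 1.27]. The counting intervals of *Pax6* and *Vax2* thus lay on opposite sides of 1, but genes of like UMI number spread over a similar width. The 5th to 95th percentile of the ratio was 0.838 to 1.12 over the 881 genes near *Pax6* in UMIs, which holds *Pax6*, and 0.842 to 1.12 over the 1828 genes near *Vax2*, which does not hold *Vax2*. *Vax1* at 1.18 [0.614, 2.31], *Pax8* at 1.10 [0.528, 2.35] and *Pax3* at 1.26 [0.563, 2.95] had fewer than 50 UMIs there. They could not be told from 1 at this depth, and their intervals reach past 1.5-fold.

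Both directions were seen again in the parts of the optic vesicle. *Pax6* had ratios of 0.827 [0.770, 0.889] in neural retina-gated, 0.850 [0.794, 0.911] in ventral-gated, 0.932 [0.860, 1.01] in dorsal-gated and 0.938 [0.877, 1.0] in pigment-gated cells. *Vax2* had ratios of 1.21 [1.08, 1.36], 1.27 [1.17, 1.38], 1.48 [1.07, 2.06] and 1.51 [1.33, 1.72] in the same order. These subclasses share cells with each other and with the whole class, so they are no independent evidence. The dorsal-gated *Vax2* ratio, on 59 and 117 UMIs, was 3.48 [2.17, 5.85] with gates of 1 marker fewer and 1.26 [0.932, 1.72] with gates of 1 marker more, and it was 2.72 without the 5% of cells with most UMIs and 2.34 after thinning. The pigment-gated *Vax2* ratio was 1.26 [1.12, 1.41] with gates of 1 marker fewer, 1.12 [0.816, 1.53] with 1 marker more and 1.30 [1.13, 1.51] without those deepest cells, so that its size and, with 1 marker more, its separation from 1 depended on the gate. *Hbb-y* free RNA was 2.11-fold higher in optic vesicle cells of the library labelled KO, and its part in these ratios was not tested.

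Genes that act beside them gave the frame for these sizes. In the eye field and optic cup list, 14 of 14 genes had at least 50 UMIs in optic vesicle cells, 0 passed 1.5-fold in either direction, and the median ratio was 1.02 against 1.01 over all genes. The lowest was *Aldh1a3*, a retinoic acid synthesis gene of the ventral side, at 0.768 [0.743, 0.795], which is also a gate marker. Of the 11 Hedgehog genes, whose ligand signals along the midline and favours *Pax2* and *Vax* over *Pax6*, 10 had enough UMIs. Again 0 passed 1.5-fold and the median was 1.01, and the lowest was *Gas1*, a co-receptor, at 0.697 [0.653, 0.744]. *Gli1*, a transcriptional target of the pathway, stood at 1.02 [0.847, 1.24]. *Shh* itself had 5 and 0 UMIs.

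In ectoderm *Pax6* had 283 UMIs or 266 CPM in cells labelled WT and 126 UMIs or 200 CPM in those labelled KO, a ratio of 0.753 [0.605, 0.932]. A 1.5-fold difference was reached by 11.2% of 4468 genes there, and *Pax6* did not reach it. The 5th to 95th percentile over the 953 genes of like UMI number was 0.750 to 1.33, which holds *Pax6*. The makeup of the class differed, since 31 of 54 cells labelled WT but 11 of 39 labelled KO passed the lens gate. Within lens-gated cells the ratio was 1.02 [0.782, 1.32], and in the other ectoderm, with 26 and 47 UMIs, it was 1.72 [1.04, 2.89]. With gates of 1 marker fewer or more the lens-gated ratio was 0.695 or 0.747, and with ectoderm split by surface ectoderm markers in place of lens markers the other ectoderm stood at 0.753. The surface ectoderm gate took 35 of 54 cells labelled WT and 28 of 39 labelled KO. Some cells labelled WT thus passed both the surface and the lens gate, and the splits hold different cells. Some markers of the lens gate were themselves lower in ectoderm of the library labelled KO, with *Six3* at 0.678 [0.522, 0.873], *Maf* at 0.336 [0.226, 0.488] and *Pitx3* at 47 and 1 UMIs. *Sox2*, at 0.825 [0.551, 1.22], could not be told from 1. Of the lens list, 6 of 9 genes had at least 50 UMIs in ectoderm, 2 were at least 1.5-fold lower and 0 higher, and the median was 0.751 against 1.0 over all genes. The lowest was *Sfrp2*, a secreted Wnt inhibitor, at 0.291 [0.233, 0.361] and the highest *Meis1*, a homeobox regulator of *Pax6*, at 1.30 [1.06, 1.60]. In the other ectoderm labelled KO 10 cells lay 1 marker below the lens gate, against 5 labelled WT. A lower level per lens cell and fewer cells past the lens gate therefore cannot be told apart in this comparison.

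In forebrain *Pax6* was at 221 and 135 CPM, a ratio of 0.609 [0.502, 0.738], and *Pax2* at 39.2 and 74.7 CPM, a ratio of 1.91 [1.33, 2.77]. Both passed 1.5-fold, as did 7.35% of 5373 genes. *Vax2* stood at 1.30 [0.992, 1.71]. The 5th to 95th percentile over genes of like UMI number was 0.790 to 1.25 for *Pax6* and 0.723 to 1.46 for *Pax2*, which do not hold them. For *Vax2* it was 0.758 to 1.37, which holds it. The median forebrain cell held 2 optic vesicle markers in both libraries, 1 below that gate's minimum, and 26 of 67 and 26 of 80 cells lay at the forebrain gate's own minimum of 2 markers. The class was small and its makeup differed, with 14 of 67 and 31 of 80 cells past the telencephalon gate. Within telencephalon-gated cells *Pax6* was at 0.959 [0.637, 1.46] and *Pax2* at 1.56 [0.872, 2.95], and in the rest *Pax6* was at 0.565 [0.448, 0.710] and *Pax2* at 2.02 [1.27, 3.27]. The direction for *Pax2* did not hold when the gates asked for 1 marker more, which moved optic vesicle cells into this class (107 and 129 cells) and gave 0.871 for *Pax2* and 0.889 for *Pax6*. The *Vax2* ratio turned to 0.903 after thinning to 10000 UMIs.

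*Pax3* was at 13.6 and 18.0 CPM in mesenchyme, a ratio of 1.33 [1.06, 1.68], where 3.91% of 10370 genes passed 1.5-fold and *Pax3* did not. Its ratio lay above the 5th to 95th percentile over the 4083 genes of like UMI number there, 0.769 to 1.30. In neural crest its 63 and 47 UMIs gave 129 and 147 CPM and a ratio of 1.13 [0.761, 1.68], where 13.1% of 2155 genes passed 1.5-fold. The range over genes of like UMI number in neural crest was 0.678 to 1.70, which holds *Pax3*. *Pax9*, which also marks head mesenchyme, was at 4.82 and 7.84 CPM in that class, a ratio of 1.63 [1.12, 2.40].

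**Figure D5:**
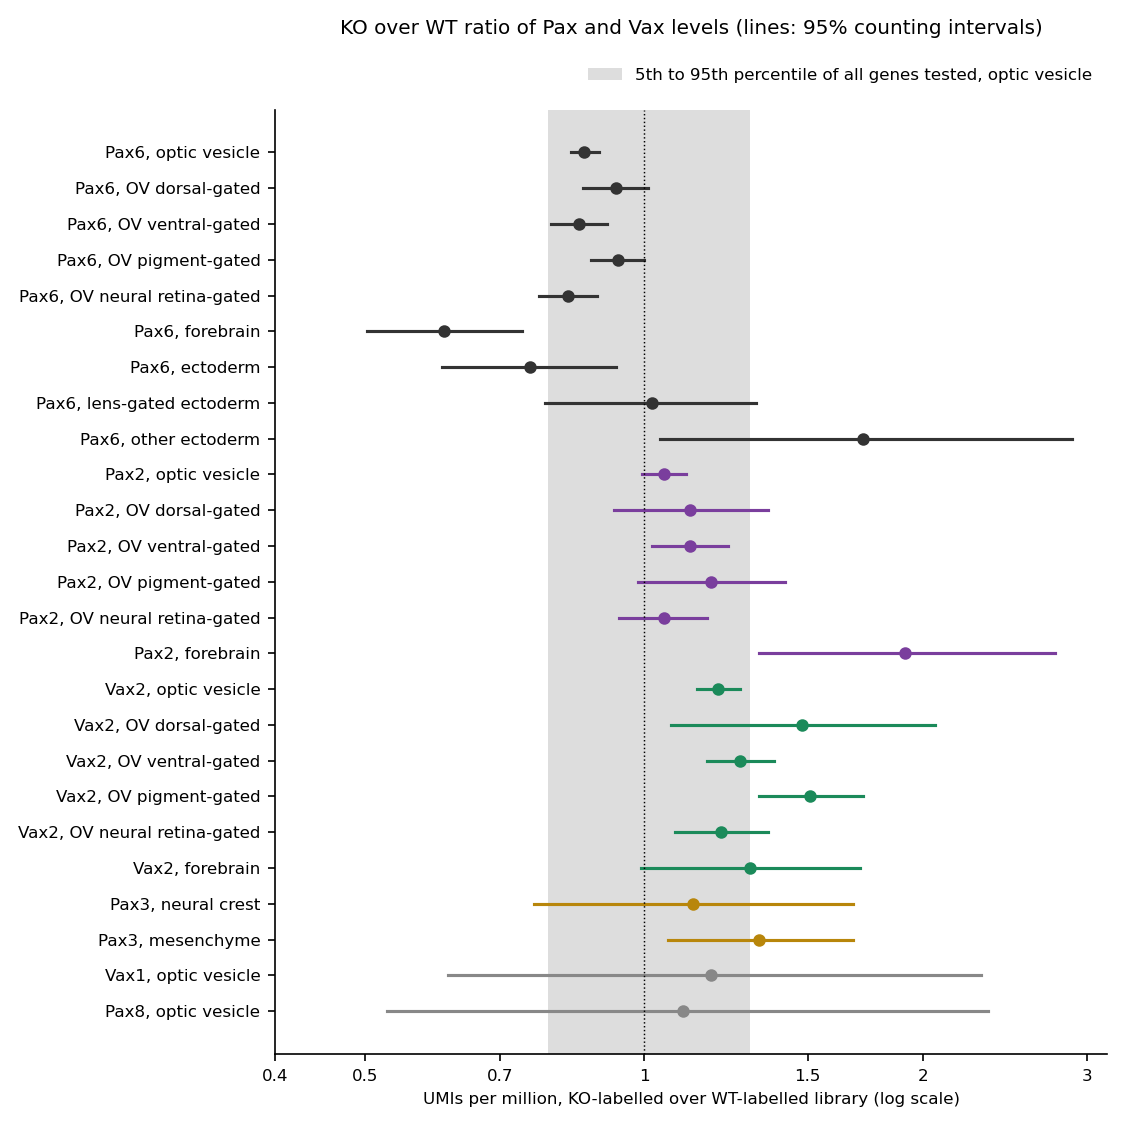
Ratio of UMIs per 1000000 labelled KO over that labelled WT (log axis) for each gene and class, with exact 95% counting intervals as lines and the 5th to 95th percentile over all genes tested in the optic vesicle (0.788 to 1.30) as a grey band. In the optic vesicle *Pax6* sits at 0.862, *Pax2* at 1.05 and *Vax2* at 1.20, all within the band, and the forebrain points for *Pax6* and *Pax2* lie outside it. The narrower range over genes of like UMI number in the optic vesicle, 0.842 to 1.12 for *Vax2*, does not hold *Vax2*. Over all genes tested, the same percentiles were wider apart in ectoderm, at 0.638 to 1.49, and in forebrain, at 0.722 to 1.49.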

How the data were processed

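The ocular area of 1 wild-type and 1 *Mab21l1*-null embryo was dissociated and sequenced by 10x Chromium 3′ single-cell RNA-seq. The authors deposited a matrix of raw UMI counts per gene and barcode for each library, made with Cell Ranger (version 2.2 in the methods) on mm10/GRCm38. The methods also describe the joining of both libraries by Cell Ranger's aggr step, where reads may be subsampled to an equal depth. Whether the deposited counts come from before or after that step is not given in the sources used here.

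Barcodes were kept if they held 1500 to 8000 genes and no more than 5% of mitochondrial UMIs (the stated limit was read as this share). This left 4084 cells, 1680 of 1745 labelled WT and 2404 of 2458 labelled KO. The methods state a total of 4084 cells. Kept cells held 8016 to 96705 and 6384 to 86710 UMIs. Classes were gated on the number of markers with a UMI. Cells past more than 1 main gate were left out, except that *Six3* was not counted for the optic vesicle gate in cells past the ectoderm gate, which moved 5 and 3 cells to ectoderm. Forebrain was gated among cells past no other gate. Inside the optic vesicle, cells past both the dorsal and the ventral gate were left out of those classes. The same was done for cells past both the pigment and the neural retina gate. Gate minima were set after the marker distributions were seen, and the 6 genes, the marker lists and the pathway lists were chosen with earlier results of these data known.

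Levels are UMIs of a gene per 1000000 UMIs of the class (CPM), with exact Poisson intervals. Ratios carry exact conditional intervals and shares of cells Clopper-Pearson intervals. A count of 0 was given a limit of 3 UMIs or 3 cells. The interval of a ratio was tested on simulated Poisson counts, which hold no spread between cells or embryos. The thinning was checked on the *Pax6* counts of cells labelled WT. Genes with at least 50 UMIs in a class over both libraries, at least 1 of them labelled WT, formed the background of KO over WT. For the axes inside the optic vesicle a gene needed at least 50 UMIs over both classes compared, in each library by itself. At least 1 of these had to lie in the dorsal-gated or neural retina-gated cells of that library, and gate markers were left out. Named genes were the 6 genes, the other paired box genes, *Mab21l1*, the gate markers, the 3 genes most alike to each of the 6 (Pearson correlation of log2(CPM + 1) over 22 points, at least 100 UMIs), and the lowest and highest of each pathway list, except that some of these genes are not reported here. *Hbb-y*, *Gli1* and *Pax6os1* were named beside these, the last 2 after their values were seen. The alternatives were other gate minima, all barcodes, no deep cells, thinning, scaling by the median ratio, a mean per cell, 2 UMIs for detection and no gene filter, and after the data were seen, no shared barcodes, cells past more than 1 gate kept and another split of ectoderm. Python 3.11.15, numpy 2.4.6, scipy 1.17.1 and pandas 2.3.3 were used.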

Additional observations from a re-analysis of the deposited data

Results flagged for a closer look

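*Pax6* in ectoderm outside the lens gate had a KO over WT ratio of 1.72 [1.04, 2.89], while it was below 1 in ventral-gated optic vesicle cells (0.850), in optic vesicle cells past neither axis gate (0.843) and in forebrain (0.609). It was singled out because the classes of the same pair of libraries went in opposite directions. With 1 library per genotype the difference between the classes was not tested. The value rests on 26 and 47 UMIs in 23 and 28 cells, among which 5 cells labelled WT and 10 labelled KO lay 1 marker below the lens gate. When ectoderm was split by surface ectoderm markers, an alternative chosen after the data were seen, the ratio was 0.753 [0.562, 1.0]. That split holds different cells, since some cells labelled WT passed both the surface and the lens gate.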

How the results depend on the processing

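Of 275 values recomputed under an alternative, 235 moved by less than their counting interval. With gates of 1 marker fewer and 1 marker more, the forebrain *Pax6* ratio was 0.408 and 0.889, and forebrain *Pax2* reversed to 0.871 with 1 marker more. The ventral over dorsal ratio of *Pax6* was 0.681 and 0.826 in cells labelled WT and 0.626 and 0.755 in those labelled KO, and the pigment over neural retina ratio of *Pax6* was 1.56 and 1.17 and 1.62 and 1.29. Ventral over dorsal *Pax2* labelled WT was 1.71 with 1 marker more, and ventral over dorsal *Vax2* was 13.1 and 4.54 with 1 marker fewer and 13.6 and 9.46 as a mean over cells. Thinning gave an optic vesicle *Pax6* ratio of 0.811. Without thinning, *Pax6* and *Pax2* shared 68.8% and 66.5% of cells and *Pax2* and *Vax1* 2.08% and 1.59%, and with at least 2 UMIs of each gene 12.8% and 11.8%, and 0 and 0. The other value counted as reversed was *Pax6* in other ectoderm, at 0.753 with the split by surface ectoderm markers, which holds different cells. Ratios whose own interval held 1 also crossed it, among them lens-gated *Pax6* with other gate minima and forebrain *Vax2* after thinning. Without the gene filter 23.2% of genes passed 1.5-fold in the optic vesicle and 44.5% in ectoderm, since genes with few UMIs were then counted. Apart from these, the cause was not tested. Leaving out the shared barcodes, or keeping cells past more than 1 gate in the optic vesicle, both chosen after the data were seen, moved none of the recomputed values beyond its counting interval. No paired analysis was possible because each genotype has 1 library. Depth limits *Pax8*, *Vax1* and every share near 1 UMI per cell.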

Other observations

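*Vax2* and *Pax2* RNA was also found outside the optic vesicle gate in forebrain cells, whose median held 2 of the 3 optic vesicle markers that gate needs, and there telencephalon-gated cells held less *Pax6* than the rest in the library labelled WT. Among cells labelled WT *Pax6* was at 126 CPM [89.4, 173] in the 14 telencephalon-gated cells and 255 CPM [222, 291] in the 53 others, and among those labelled KO at 121 CPM [94.5, 153] and 144 CPM [119, 172]. *Vax2* was at 79.8 and 77.8 CPM in cells labelled WT and at 130 and 82.2 CPM in those labelled KO. *Pax6* and *Pax2* were found together in 2 of 14 thinned telencephalon-gated cells labelled WT and 11 of 27 labelled KO.

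Over the pooled optic vesicle class, cells with *Vax2* also held less *Pax6* than cells without, with no further step at 3 or more UMIs. The means were not split by territory. Optic vesicle cells thinned to 10000 UMIs held a mean of 2.95 *Pax6* UMIs with no *Vax2* UMI, 2.38 with 1 or 2 and 2.48 with 3 or more in those labelled WT, and 2.45, 1.88 and 2.04 in those labelled KO. The antisense gene *Pax6os1* was at 1.99 CPM in optic vesicle cells labelled WT and 2.88 CPM in those labelled KO.

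The cells that passed more than 1 gate held 15 and 52 *Pax3* UMIs, a KO over WT ratio of 3.17 [1.76, 6.07], and 666 and 578 *Pax6* UMIs. They are not part of any class above.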
